A study of Mus musculus with 10 samples.

Results

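The genes of the constitutive proteasome and its assembly factors were followed in the neural retina of albino mice after 1 day of intense light. The members are the protein-coding genes whose symbol starts with Psma, Psmb, Psmc, Psmd, Psme, Psmf or Psmg and a digit, without the induced catalytic subunits Psmb8, Psmb9 and Psmb10. This rule took 47 of the 54532 genes in the table, of which 22046 are protein-coding. RNA-seq was done on 10 retinas from BALB/c mice, an inbred strain without eye pigment, at an age of 2 months. All mice spent 12 h in darkness and were then placed for 1 day under normal light of 200 lux (NL, 5 retinas) or under 15000 lux (LD, 5 retinas). RNA came from whole retina, so that a lower value can mean fewer cells of a type or less RNA per cell, which cannot be told apart here. In the labels, NL has the replicate numbers 1, 4, 5, 7 and 8, and LD has 1, 4, 6, 7 and 8. The labels do not say which retinas came from separate mice, so the p-values measure the spread between these samples. Expression is given as FPKM, that is, fragments for each kilobase of a gene's length, scaled by library size.

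The proteasome is the barrel-shaped protease that degrades proteins tagged with ubiquitin, and photoreceptors, which renew their light-sensing membranes every day, depend on it. Its 20S core is built from outer rings of alpha subunits, which gate the entry, and inner rings of beta subunits, some of which carry the protease sites. The 19S particle caps the core to form the 26S proteasome, with a base of ATPases that unfold the substrate and a lid that removes the ubiquitin. Other caps exist, among them PA28αβ, a ring of the Psme1 and Psme2 proteins that interferon induces and that opens the gate without ubiquitin or ATP. Dedicated chaperones build the core and the base and are not part of the finished particle.

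After LD, the PA28 genes Psme1 and Psme2 and the Psme2 copy Psme2b rose more than 2-fold, while the folds of the 26S subunits stayed between 0.829 and 1.19. Of the 45 members with enough signal to be tested, 15 were higher and 2 were lower after LD at an adjusted p under 0.05 (limma with Benjamini-Hochberg adjustment over all 24508 genes tested). The higher ones are 33.3% of the members tested, beside 14.5% of all genes tested, and the lower ones are 4.44%, beside 13.4%. With the stricter limit of an adjusted p under 0.01 and a fold above 2, 3 members were higher and 0 were lower, while 4.13% and 2.37% of all genes were called at this limit. In 13 members all 5 LD retinas lay above all 5 NL retinas (28.9%, against 11.8% of all genes), and in 1 member, Psmd9, all lay below (2.22%, against 10.6%). The median log2 fold change was 0.10 over the members and -0.01 over all genes tested.

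The scaling of the libraries bears on these counts. The deposited values carry a factor per retina of 0.951 to 0.968 in NL and 1.04 to 1.07 in LD, and without it the median of all genes moved by 0.12 on the log2 scale. On that scale 29 members were higher and 0 were lower, so that 100% of the called members were higher instead of 88.2%, and the median over the members was 0.23 against 0.11 over all genes. The calls over all genes moved in the same setting, to 23.5% higher and 8.21% lower, so that 74.1% of all called genes were higher instead of 52.0%. Read against the median of all genes, the members thus kept nearly the same distance. Psme1, Psme2 and Psme2b passed the stricter limit under each of the 22 alternatives tried.

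**Figure D1:**
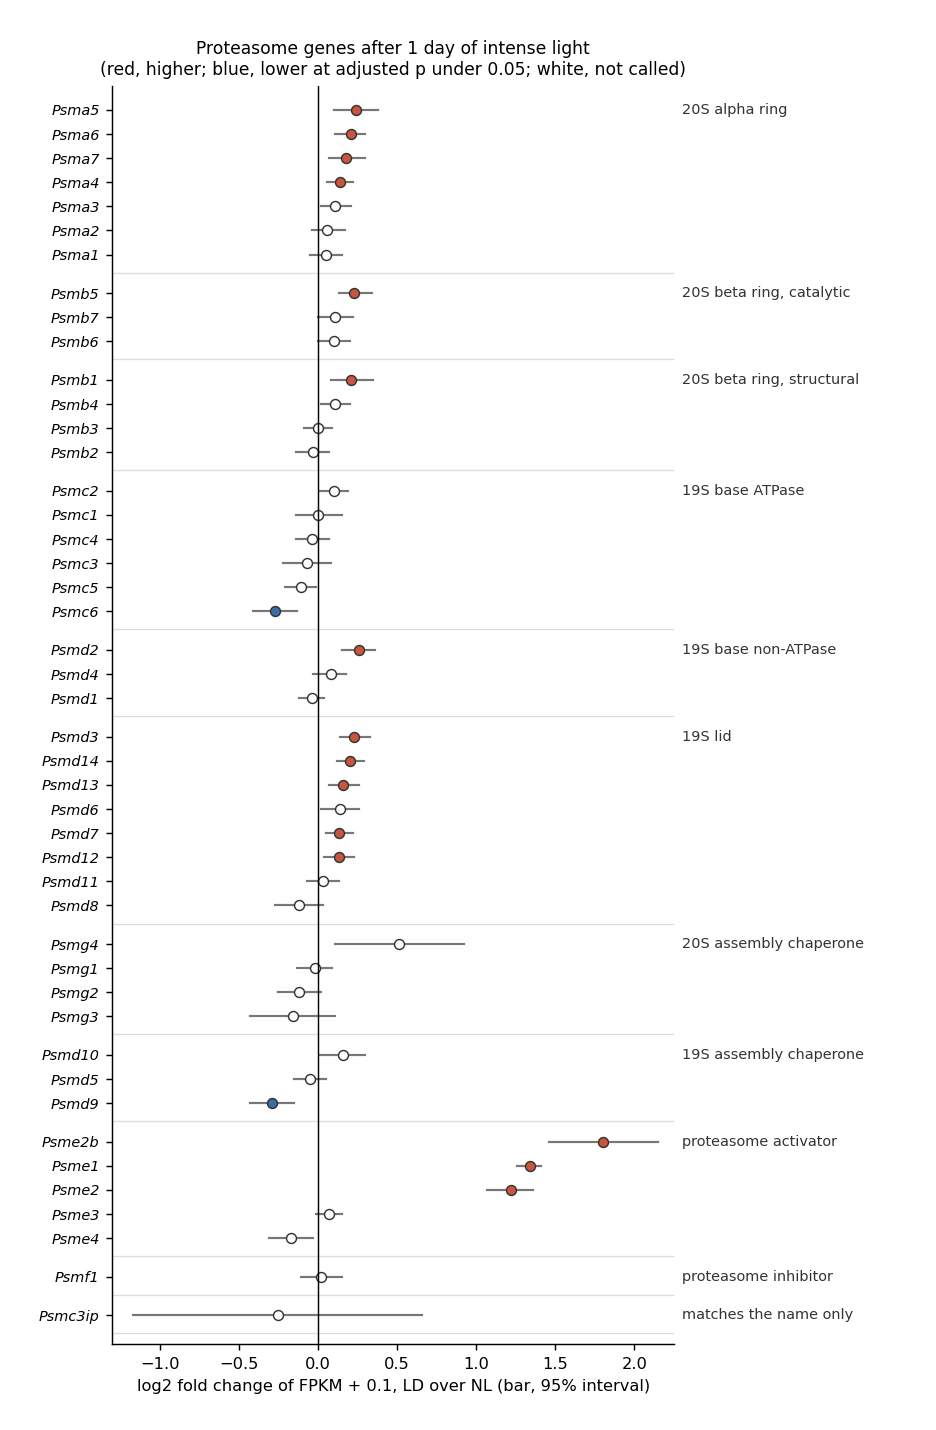
The log2 fold change of FPKM + 0.1 (LD over NL, x axis) is drawn for the 45 members tested, grouped by role, with the 95% interval as a bar and red, blue or white points for higher, lower and not called. Psme1, Psme2 and Psme2b lie between 1.22 and 1.80, and the 31 members that are subunits of the 26S proteasome lie between -0.27 and 0.26.

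Among the activators were the members with the largest changes. Psme1 (chr14:55578123-55581529) encodes PA28α, and its FPKM was 12.7, 11.8, 12.0, 12.0 and 11.8 under NL and 29.8, 31.6, 30.6, 31.1 and 30.1 under LD. The groups were far apart, and the 5 LD retinas differed from each other by little. The log2 fold change was 1.34 with an SE of 0.04, and the adjusted p was 5.59e-09 by limma. By the two-sided exact permutation test of the mean FPKM, p was 0.00794, which is the smallest value that 5 against 5 retinas can give.

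Psme2 (chr14:55587441-55591113) encodes PA28β, the partner of PA28α in the ring, and lies close to Psme1 on the opposite strand. Its FPKM was 11.3, 9.61, 9.33, 9.93 and 9.93 in NL and 23.4, 20.7, 25.1, 23.6 and 24.5 in LD. The groups were again separate, with a log2 fold change of 1.22 (SE 0.07, adjusted p = 5.90e-07). The level of Psme1 over that of Psme2 within a retina, both in FPKM, was 1.21 ± 0.0610 (SD, n = 5) in NL and 1.31 ± 0.126 in LD. This ratio did not differ beyond the spread between retinas (exact permutation p = 0.111, the same after adjustment over the 7 ratios compared).

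Psme2b (chr11:48945354-48946190) is a copy of Psme2 without its introns. Its FPKM was 4.97, 5.68, 9.24, 6.08 and 6.62 in NL and 19, 28.0, 21.6, 22.6 and 22.2 in LD, again without overlap, and its log2 fold change was 1.80 (SE 0.15, adjusted p = 1.52e-05). Of the 100-base windows of its transcripts, 52.0% were identical to a window of Psme2, and 18.4% of the windows of Psme2 were identical to one of Psme2b. Reads from those stretches can be assigned to either gene, so the separate values of Psme2 and Psme2b are uncertain. Psme2b also lies inside Gm12185, a gene on the same strand whose mean rose from 0.0143 to 1.07 FPKM.

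The other activators of the core were not called on the deposited scale. Psme3 encodes PA28γ, a nuclear activator, and was at 33.7 to 35.3 FPKM in NL and 35.1 to 37.9 in LD, with a log2 fold change of 0.07 (SE 0.04, adjusted p = 0.168). Without the factor per retina Psme3 was called higher (0.21, adjusted p = 0.00144). Psme4 encodes PA200, a large single-chain activator. Its FPKM was 12.6, 12.3, 12.9, 12.9 and 13.2 in NL and 12.6, 11.2, 10.2, 12.6 and 10.4 in LD, with overlap between the groups. The log2 fold change of Psme4 was -0.17 (SE 0.07, adjusted p = 0.0798), and without the LD retina 1 or 7 it was -0.21, with an adjusted p of 0.0333 or 0.0397, within a range of 0.0333 to 0.709 over all alternatives.

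Within single retinas the makeup of the activator transcripts thus shifted. Psme1 over Psme3, as a ratio of FPKM, was 0.350 ± 0.00752 in NL and 0.846 ± 0.0397 in LD (SD, n = 5 each). Psme2 over Psme3 was 0.290 ± 0.0210 and 0.647 ± 0.0392, and Psme1 over Psme4 was 0.946 ± 0.0414 and 2.71 ± 0.277. None of these 3 ratios overlapped between the groups, and the exact permutation p was 0.00794 (0.00926 after adjustment over the 7 ratios). These p-values follow from the changes of the single genes given above and are not separate evidence. A ratio within a retina does not depend on the factor per retina.

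**Figure D2:**
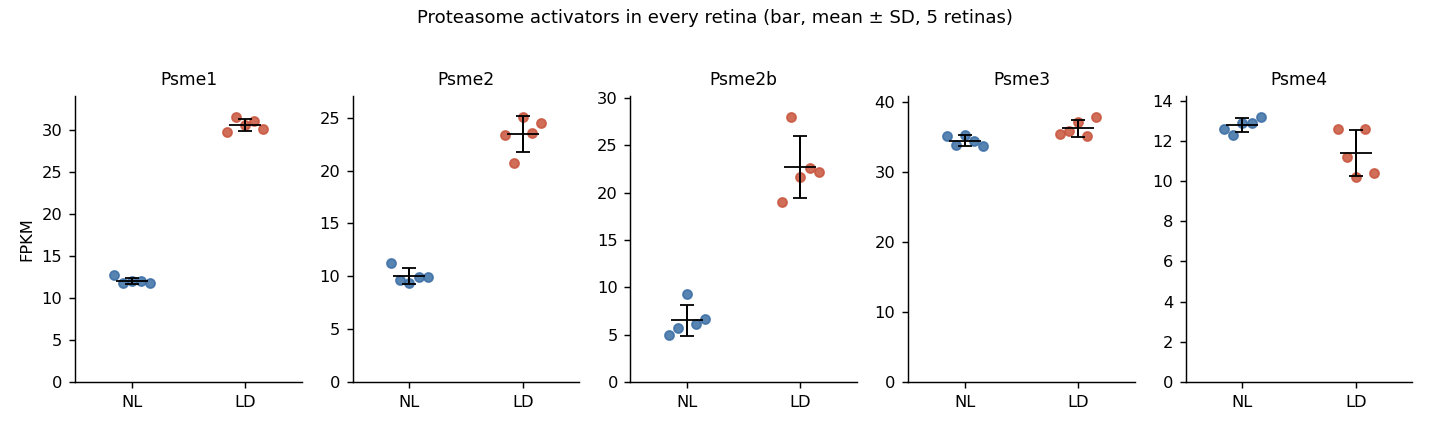
FPKM (y axis, starting at 0) of the 5 activator genes in every NL and LD retina, with the mean and SD as black bars over 5 retinas. Psme1, Psme2 and Psme2b are separated between the groups, whereas Psme3 and Psme4 overlap.

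The sequences around the start sites of Psme1 and Psme2, which rose, and of Psme3, which was not called on the deposited scale, are shown because interferon acts through short promoter elements. RefSeq windows of GRCm38.p6, from 250 bases before to 50 bases after a start site, were found for 39 of the 47 members, as 42 windows. They were searched on both strands for the core of the interferon-stimulated response element, written GAAANNGAA. Capitals mark the match, and Psme2 (1 of its 2 overlapping windows is shown), Psme3 and Psme2b (not shown) hold none.
Psme1, chr14:55578244-55578543, plus strand: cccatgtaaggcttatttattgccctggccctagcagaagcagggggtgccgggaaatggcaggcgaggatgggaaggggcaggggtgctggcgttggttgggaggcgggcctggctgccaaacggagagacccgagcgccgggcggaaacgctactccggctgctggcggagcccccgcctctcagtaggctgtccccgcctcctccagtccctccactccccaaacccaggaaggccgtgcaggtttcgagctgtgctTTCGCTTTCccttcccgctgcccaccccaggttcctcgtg
Psme2, chr14:55591052-55591351, minus strand: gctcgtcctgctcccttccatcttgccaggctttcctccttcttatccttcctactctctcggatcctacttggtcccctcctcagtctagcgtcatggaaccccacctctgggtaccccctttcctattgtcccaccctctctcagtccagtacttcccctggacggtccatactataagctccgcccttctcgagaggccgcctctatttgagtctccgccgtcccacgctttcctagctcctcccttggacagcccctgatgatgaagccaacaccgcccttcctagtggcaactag
Psme3, chr11:101315963-101316262, plus strand: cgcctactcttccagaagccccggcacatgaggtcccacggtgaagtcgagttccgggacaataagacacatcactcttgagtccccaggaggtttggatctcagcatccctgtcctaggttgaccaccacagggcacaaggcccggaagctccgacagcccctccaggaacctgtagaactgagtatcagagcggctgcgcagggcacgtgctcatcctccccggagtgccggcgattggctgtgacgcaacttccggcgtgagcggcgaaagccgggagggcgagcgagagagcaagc
In Psme1 the match starts 11 bases into the transcript and reads TTCGCTTTC, which is the element on the other strand. Over all members, 7 windows held the core, or 16.7% of 42, beside 8.56% of the 32851 promoters in the table. These were Psme1, Psmb3, Psmb4, Psmc2, Psmd4, Psmd9 and Psmg4, of which Psme1 was higher and Psmd9 was lower after LD, and the other 5 were not called on the deposited scale. A match is a description of the letters and does not show that a factor binds there.

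The catalytic subunits of the core were compared with the induced subunits that can replace them. When the immunoproteasome forms, Psmb8 takes the place of Psmb5, Psmb9 that of Psmb6 and Psmb10 that of Psmb7. The constitutive subunits were not lower after LD, but the induced ones were 2.17 (Psmb10) to 3.63 (Psmb8) higher on the log2 scale, with adjusted p of 5.41e-08 for Psmb8, 3.53e-06 for Psmb9 and 9.48e-08 for Psmb10 by limma, so that the transcript makeup of each pair changed. Psmb8 made up 1.71, 1.24, 0.959, 1.04 and 0.885% of the summed FPKM of Psmb8 and Psmb5 in NL, and 13.4, 13.7, 12.6, 12.8 and 12.0% in LD. The share of Psmb9 with Psmb6 was 0.725% ± 0.165 (SD, n = 5) in NL and 9.46% ± 2.74 in LD, where the LD retinas 1 and 7 were lowest at 6.42 and 6.82%. Psmb10 with Psmb7 was already at 24.9% ± 0.428 in NL and reached 58.4% ± 2.35 in LD. The level of such a share depends on the gene lengths of the table, here 1705 bases for Psmb10 and 3421 for Psmb7. In reads, Psmb10 had 215 to 1283 over all retinas and Psmb7 had 1264 to 1657. In all 3 pairs the groups did not overlap (exact permutation p = 0.00794, adjusted p = 0.00926 each). This follows from the rise of the induced subunits and is not separate evidence.

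**Figure D3:**
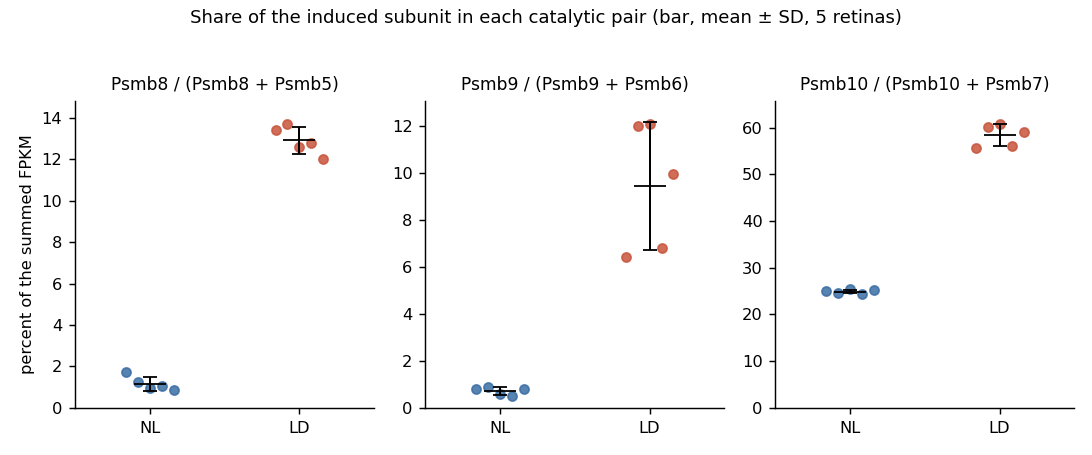
The share of the induced subunit in the summed FPKM of each catalytic pair (percent, y axis, starting at 0) is drawn for every retina, with the mean and SD as black bars. The shares in LD were near 12.9, 9.46 and 58.4%, and each lay above every NL retina.

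Of these constitutive catalytic subunits, Psmb5, which carries the chymotrypsin-like site, rose slightly. Its FPKM was 34.5, 37.1, 35.3, 39.1 and 36.5 in NL and 40.8, 43.5, 44.4, 40.4 and 45.7 in LD. The groups did not overlap, and the log2 fold change was 0.23 (SE 0.05, adjusted p = 0.00499). Psmb6, with the caspase-like site, was at 40.1, 40.9, 42.0, 41.3 and 39.4 in NL and at 40.4, 45.9, 46.4, 44.0 and 42.2 in LD. It overlapped between the groups and was not called (log2 fold change 0.10, SE 0.05, adjusted p = 0.132), although it was called without the LD retina 1 (0.13, adjusted p = 0.0463, within 0.00494 to 0.287 over all alternatives). Psmb6 was also called by TPM, without the factor per retina and by limma-voom (0.21, 0.23 and 0.23). Psmb7, with the trypsin-like site, was not called either (0.11, adjusted p = 0.141), but was without the factor per retina (0.24, adjusted p = 0.00627).

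The promoter window of Psmb5 is shown because it holds matches to elements bound by factors of the proteasome and heat stress responses. The capitals mark, in order from the left, a heat shock element (searched as GAANNTTC) and an antioxidant response element (searched as TGACNNNGC).
Psmb5, chr14:54617946-54618245, minus strand: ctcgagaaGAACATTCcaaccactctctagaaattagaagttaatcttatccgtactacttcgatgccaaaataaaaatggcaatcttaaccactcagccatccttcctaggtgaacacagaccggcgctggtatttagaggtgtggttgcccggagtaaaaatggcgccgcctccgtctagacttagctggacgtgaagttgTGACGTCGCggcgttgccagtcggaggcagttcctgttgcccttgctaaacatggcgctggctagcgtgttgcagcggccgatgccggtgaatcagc
The antioxidant element was found in 6 member windows, those of Psmb5, Psmb6, Psmc6, Psmd12, Psmd9 and Psme4 (14.3%, beside 12.4% of all promoters), of which Psmb5 and Psmd12 were called higher and Psmc6 and Psmd9 lower. The heat shock element was found in 2, Psmb5 and Psmf1 (4.76%, beside 7.86%). The GAS element that interferon gamma signalling uses, searched as TTCNNNGAA, was in 2, Psmd2 and Psmg1 (4.76%, beside 8.30%).

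The rest of the 20S core moved by small amounts and mostly upward. All 7 alpha subunits had a positive log2 fold change, of 0.05 to 0.24, and 4 of them were called higher, Psma4, Psma5, Psma6 and Psma7. Among the 7 beta subunits 2 were called higher, Psmb5 and the structural subunit Psmb1, and none was called lower. Of all genes tested 14.5% were called higher and 13.4% lower. Psma5 showed the largest change in the alpha ring, with 27.1, 26.5, 28.8, 31.1 and 31.9 FPKM in NL and 32.5, 34.4, 36.2, 32.4 and 36.0 in LD. The highest NL retina was just below the lowest LD retina (log2 fold change 0.24, SE 0.06, adjusted p = 0.0138). This call held under 19 of the 22 alternatives, with an adjusted p of 0.00112 to 0.0812 over all of them, and was lost with the 3 closest pairs averaged (0.26, adjusted p = 0.0572). Of the 100-base windows of Psma5, 23.7% are shared with pseudogenes, and 22.2% of those of Psmb5 with other genes. Psma1 had the smallest change of the ring, from 20.2, 21.1, 20.4, 19 and 20.1 to 20.2, 21.5, 22.3, 20.3 and 20.1 FPKM, with overlap (0.05, SE 0.04, adjusted p = 0.443). A call for Psma1 appeared without the factor per retina (0.18, adjusted p = 0.0130), by TPM and by limma-voom.

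Psma6 had the highest FPKM of the alpha subunits, with a mean of 54.0 in NL and 62.3 in LD, and was called under every alternative (log2 fold change 0.21, adjusted p = 0.00416). Psmb1 was at 15.3, 14.9, 16.3, 16.3 and 15.0 FPKM in NL and at 17.9, 19.6, 19.1, 15.8 and 18.2 in LD. The LD retina 7 fell within the NL range, and the log2 fold change was 0.21 (SE 0.06, adjusted p = 0.0222). Psmb2, another structural subunit, was at 31.0, 31.4, 32.8, 32.3 and 30.0 in NL and 32.4, 29.7, 30.8, 28.6 and 32.5 in LD, with a log2 fold change of -0.03 (adjusted p = 0.634) whose sign turned under 4 of the alternative scalings. The calls of Psma7 and Psmb1 were lost without single retinas. Psma7 lost its call without any one of the NL retinas 1, 7 and 8 or the LD retinas 6 and 8, with adjusted p of 0.0508 to 0.0577, and Psmb1 lost it without the NL retinas 4 or 8 or the LD retinas 4 or 6, with 0.0510 to 0.0544.

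The 19S particle held called subunits of both directions. Of its 17 subunits among the members 6 were called higher and 1 lower, beside 14.5% and 13.4% of all genes, and 10 were not called. The 19S subunits Adrm1 and Sem1 do not match the name rule and are not in these counts. The lid held most of the increases, with 5 of 8 called higher, namely Psmd3, Psmd7, Psmd12, Psmd13 and Psmd14, the last of which is the deubiquitinase that cuts ubiquitin from the substrate. Among the 6 ATPases of the base none was called higher, and Psmc6 was called lower.

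Psmd2, a base subunit that receives ubiquitin shuttle proteins, had the largest increase of the 26S subunits. Its FPKM was 45.7, 46.3, 47.8, 44.2 and 44.7 in NL and 50.7, 57.4, 58.1, 51.5 and 55.6 in LD, without overlap (log2 fold change 0.26, SE 0.05, adjusted p = 0.00287). Its neighbour in the base, Psmd1, was at 16.2, 17.0, 16.8, 16.1 and 16.4 in NL and 16.1, 16.3, 15.9, 15.3 and 16.7 in LD, with overlap, and its log2 fold change of -0.04 (adjusted p = 0.492) turned to 0.07 to 0.10 under 3 other scalings.

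In the lid, Psmd3 had the largest change, from 23.0, 25.5, 24.4, 23.8 and 23.0 FPKM in NL to 27.0, 28.7, 28.2, 27.6 and 29.4 in LD. The LD group lay wholly above the NL group (log2 fold change 0.23, SE 0.04, adjusted p = 0.00191). Psmd14 went from a mean of 16.2 to 18.7 FPKM, also without overlap (0.20, SE 0.04, adjusted p = 0.00223). Psmd8 had the lowest log2 fold change of the lid (-0.12, SE 0.07, adjusted p = 0.223). Its FPKM was 29.2, 30.6, 29.8, 28.1 and 24.6 in NL and 25.2, 27.4, 26.5, 23.7 and 27.9 in LD, which overlapped. The sign of its change turned without the factor per retina and by limma-voom. Psmd7 lost its call when the NL retina 1, 5 or 8 or the LD retina 6 was left out, with an adjusted p of 0.0542 to 0.0592. Psmd12 (0.13, adjusted p = 0.0430) kept its call under 9 of the 22 alternatives and lost it when any single retina other than NL 4 or LD 1 was left out, with an adjusted p of 0.0509 to 0.0979.

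Psmc6, an ATPase of the base, was at 31.8, 29.5, 35.4, 31.7 and 34.9 FPKM in NL and 29.5, 25.5, 25.4, 26.7 and 27.9 in LD. The highest LD retina equalled the lowest NL retina at this precision, and the log2 fold change was -0.27 (SE 0.06, adjusted p = 0.00789). Psmc2 had the highest log2 fold change of the ATPases, from 17.0, 17.3, 17.3, 16.3 and 17.3 to 18.2, 17.7, 18.2, 17.6 and 19.8, without overlap (0.10, SE 0.04, adjusted p = 0.0892). By TPM, without the factor per retina and by limma-voom it was called higher (0.21, 0.24 and 0.24, adjusted p of 9.43e-04 to 0.00247). The other 4, Psmc1, Psmc3, Psmc4 and Psmc5, were between -0.11 and 0.00. Psmc6 was not called under the scalings without the factor per retina, by TPM or by limma-voom, where its log2 fold change stayed below 0, nor among the retinas of shared numbers without a block.

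Taken over the 31 members that are subunits of the 26S proteasome, 12 were called higher, 1 was lower and 18 were not called. Their folds were 0.829 to 1.19, and the 95% intervals of all of them lay between 0.754 and 1.30, or between 0.833 and 1.43 without the factor per retina. Their mean levels in NL were 10 to 85.1 FPKM, all above the median of 5.76 for protein-coding genes tested. The spread between retinas of a group was small, with a median coefficient of variation of 4.40% in NL and 4.71% in LD. The median of the 14 core subunits, as log2 of FPKM over the NL mean, ranged from -0.04 to 0.05 under NL and from 0.06 to 0.17 under LD. For the 17 subunits of the 19S particle it was -0.03 to 0.03 in NL and 0.03 to 0.13 in LD. The core medians of the groups did not overlap, while those of the 19S particle met at 0.03.

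**Figure D4:**
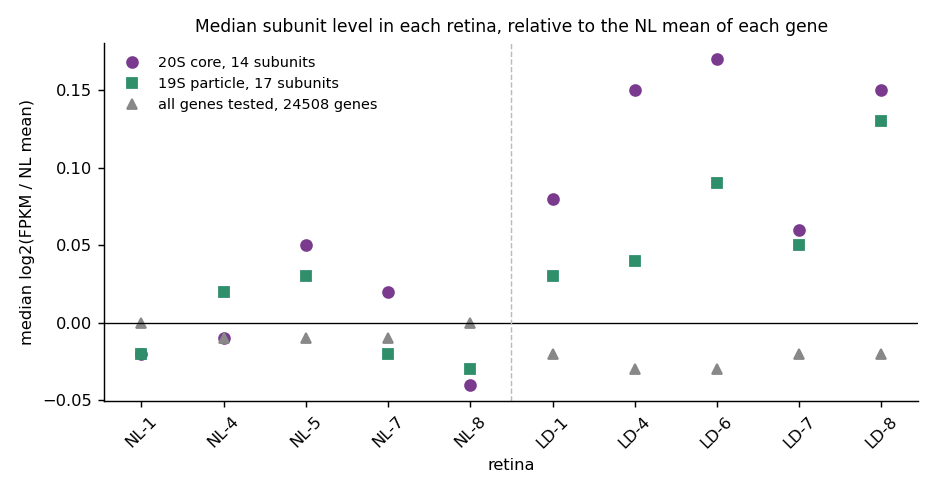
The median log2 of FPKM over the NL mean (y axis) is drawn in each retina (x axis) for the core, the 19S particle and all genes tested (the last with 0.1 added to each FPKM). The core lies at 0.06 to 0.17 in the LD retinas, while all genes lie at -0.03 to -0.02.

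Of the assembly chaperones among the members, 1 was called lower and none higher on the deposited scale, beside 13.4% and 14.5% of all genes. Pomp, a chaperone outside the name rule, is given below. For the 19S base, Psmd9 was lower, Psmd5 was not called (log2 fold change -0.05, adjusted p = 0.444) and Psmd10, also known as gankyrin, was not called. Psmd9 was at 4.68, 4.12, 3.99, 4.10 and 4.64 FPKM in NL and 3.46, 3.42, 3.40, 3.59 and 3.58 in LD, without overlap (-0.29, SE 0.06, adjusted p = 0.00639). This call was lost under 4 of the 22 alternatives, among them TPM, limma-voom and the scale without the factor per retina, and the value was below 0 in all of them. Psmd10 was at 9.04, 8.62, 9.12, 7.92 and 7.94 in NL and 8.65, 9.33, 10.3, 9.06 and 10.3 in LD, with overlap (0.16, SE 0.07, adjusted p = 0.108). Under those same 3 scalings Psmd10 was called higher, with 0.29 and an adjusted p of 0.00688 without the factor per retina.

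None of the 4 members that are chaperones of the 20S core, Psmg1 to Psmg4, was called on the deposited scale. Psmg4 had the largest log2 fold change but also a wide spread, with 14.7, 10.5, 22.0, 20.4 and 16.8 FPKM in NL and 23.9, 21.3, 24.2, 19.9 and 28.2 in LD. The groups overlapped, and the log2 fold change was 0.51 (SE 0.18, adjusted p = 0.0612). It was called without the NL retina 5 or 7 (0.62 and 0.59, adjusted p = 0.0300 and 0.0488, within 0.0109 to 0.129 over all alternatives). Without the factor per retina Psmg4 was also called higher by limma (0.64, adjusted p = 0.0196). Psmg3, the lowest of the 4 in FPKM, was at 2.96, 2.36, 3.12, 2.85 and 2.61 in NL and 3.02, 2.13, 2.63, 2.64 and 2.03 in LD, with overlap (-0.16, SE 0.12, adjusted p = 0.377). Between 124 and 548 reads lay behind each value of these 4 genes, fewer than the 645 to 5251 for the 26S subunits among the members.

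The remaining members showed no called change. Psmf1 encodes PI31, a proteasome-binding protein first described as an inhibitor, and was at 6.76, 6.95, 7.19, 6.45 and 6.53 FPKM in NL and 7.06, 6.66, 6.75, 7.61 and 6.28 in LD. The groups overlapped (log2 fold change 0.02, SE 0.06, adjusted p = 0.852), and the sign turned without the LD retina 7 and with quantile normalization. Psmc3ip is named after a proteasome subunit but encodes a factor of meiotic recombination. It was at 8.0, 4.40, 11.2, 10.4 and 3.48 in NL and 3.27, 9.30, 10, 3.48 and 5.51 in LD, a coefficient of variation of 46.4% and 50.4%, and was not called (-0.25, SE 0.41, adjusted p = 0.700). Psma8, the alpha subunit of the testis, and Psmb11, the beta subunit of the thymus, were at means of 0.0372 and 0.0245 FPKM in NL, with at most 7 and 9 reads in any retina, and were not tested.

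Genes that work with the proteasome, or are subunits of it, but lie outside the name rule were taken from a list of 28. From this list 27 genes were matched and tested. Of these 5 were higher and 1 was lower after LD (18.5% and 3.70%, beside 14.5% and 13.4% of all genes), and none passed the stricter limit. Sqstm1, the p62 receptor that carries ubiquitinated cargo to autophagy and the proteasome, had the largest change, from 64.6, 77.2, 72.7, 71.9 and 67.6 FPKM in NL to 82.1, 118, 114, 87.0 and 106 in LD. The groups were separate (log2 fold change 0.50, SE 0.10, adjusted p = 0.00455). Pomp, the chaperone that guides beta-ring assembly, had a log2 fold change of 0.29 (adjusted p = 0.0166). The shuttle factor Rad23b had 0.27 (adjusted p = 6.18e-04) and the activating zinc finger protein Zfand5 0.18 (adjusted p = 0.00466). Adrm1, a ubiquitin receptor and proteasome subunit, had 0.15 (adjusted p = 0.0315). Adrm1 lost its call when any one of the NL retinas 1, 4, 5 and 8 or the LD retinas 4, 6 and 8 was left out, and its adjusted p over all alternatives was 0.00117 to 0.186.

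Nfe2l1 encodes NRF1, the transcription factor that drives proteasome genes when the proteasome is impaired. Its level was not called on the deposited scale (47.8 ± 2.62 FPKM in NL and 50.5 ± 3.05 in LD, SD, n = 5, log2 fold change 0.08, adjusted p = 0.335), nor was that of Nfe2l2, which encodes NRF2 (0.26, adjusted p = 0.0700). Without the factor per retina both were called higher by limma, Nfe2l1 at 0.21 (adjusted p = 0.0168) and Nfe2l2 at 0.39 (adjusted p = 0.00853). On that scale 23.5% of all genes were called higher. Ngly1, the glycanase that processes NRF1, was the gene that fell, from 4.49, 4.60, 4.60, 4.66 and 4.05 FPKM in NL to 3.79, 3.61, 3.31, 3.67 and 3.45 in LD (-0.32, SE 0.06, adjusted p = 0.00341). Without the NL retina 4, or with a minimum of 1 FPKM, a further gene was called lower, the scaffold gene Ecpas, named here after its values were seen (-0.22 and -0.19, adjusted p = 0.0435 and 0.0499).

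Markers of the photoreceptors and of other cell types also differed between the groups. All 6 rod markers were lower after LD, with a summed level of 7441 to 9096 FPKM in NL and 1017 to 2193 in LD, and all 4 cone markers were lower. Of 8 microglia and macrophage markers 7 were higher, with sums of 20.1 to 34.4 in NL and 48.4 to 114 in LD, and none of these markers was at 0 in any retina. Among the Müller glia markers 1 of 5 was higher and 1 lower, and for the bipolar cells 0 of 4 were called in either direction. For the pigment epithelium 1 of 6 markers was higher, for endothelium 1 of 4, and for blood none of 3. Their part in the changes of the proteasome genes was not tested.

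Depth was 18965090 to 26832535 reads per retina, recovered from the FPKM, and no value of a tested member rested on fewer than 89 reads. The retinas LD 4 and 6, NL 5 and 7, and LD 1 and 7 were closer to each other than the other 17 pairs of a group, with a chi-square per gene of 2.52 to 3.41 against 10.9 to 38.5, where sampling noise alone gives about 1. With each of these pairs averaged, 9 members were higher and 2 lower, beside 9.67% and 8.09% of all genes. Of the members 21 overlap another gene in the annotation, 16 of them one on the opposite strand, and since the strand setting of the counting is not given in the sources used here, reads of such partners cannot be told apart.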

How the data were processed

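RNA-seq of 5 NL and 5 LD retinas was used. The authors deposited 1 table of values in FPKM (scaled by gene length and library size), with gene positions, biotypes and lengths. The submitters' processing notes name TopHat2 2.0.9, Bowtie2 2.0.6 and mm8, but 46 of the 47 members have the same position in GENCODE M21, on GRCm38. The counting program and its strand setting are not given in the sources used here. The labels name a NovaSeq and the study's methods a HiSeq instrument. Multiplying FPKM by gene length gave whole reads for 100% of values, within 0.01 read, and 18965090 to 26832535 reads per retina in all.

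From the deposited FPKM, log2(FPKM + 0.1) was compared between LD and NL for the 24508 genes that reached 0.1 FPKM in 5 or more retinas. The fit used limma 3.58.1 (R 4.3.3), an intensity trend and Benjamini-Hochberg adjustment over these genes. Fold changes are on the log2(FPKM + 0.1) scale, which understates changes of low genes. Single genes and ratios were compared by two-sided exact permutation tests with scipy 1.17.1 under Python 3.11.15. The fit was tested on simulated data with independent retinas and no factor per retina, and the outcome is not reported here. That test does not cover the close pairs of retinas or the scaling. No set test was run. The members, roles and lists were chosen with earlier results of these data known. Values in every retina are given for the members with the largest and smallest log2 fold change of each role and those past the stricter limit. Of the partner list, called genes are named, and a few others are not reported here. In all, 22 alternatives were computed. RefSeq promoter windows are of GRCm38.p6. Columns of other samples numbered 0.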

Additional observations from a re-analysis of the deposited data

Results flagged for a closer look

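Single retinas stood apart from the other 4 of their group in 4 of the 90 groups of 5 retinas examined (45 members in NL and in LD), and chance alone gives 4.50 such groups. Psmc2 was at 16.3 FPKM in the NL retina 7, with the others at 17.0 to 17.3, and at 19.8 in the LD retina 8, with the others at 17.6 to 18.2. Psmc4, another ATPase of the base, was at 31.7 in the NL retina 7, with the others at 35.3 to 36.6. Psme1 was at 12.7 in the NL retina 1, with the others at 11.8 to 12.0, which is small beside the LD values of 29.8 to 31.6.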

How the results depend on the processing

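The counts of members moved with the scaling. By TPM, without the factor per retina and by limma-voom on recovered reads, 27, 29 and 28 members were higher and 0 lower in each, with medians of 0.21, 0.23 and 0.23, while the median of all genes moved by 0.10, 0.12 and 0.13, with 20.8, 23.5 and 24% of all genes higher and 8.50, 8.21 and 8.25% lower. Partner genes called higher were then 12, 12 and 13. Averaging the closest pairs left 9 members higher, and without an intensity trend 10 were higher, beside 9.67% and 13.7% of all genes. Leaving out 1 retina at a time gave 11 to 16 members higher and 2 to 3 lower, beside 12.5 to 14.1% and 11.1 to 13.7% of all genes. Of the partner genes 4 to 5 were then higher and 1 to 2 lower, where the 2 came without the NL retina 4. A minimum of 1 FPKM also gave 2 partner genes lower. Whether the replicate numbers pair the retinas is not known. Deviations of same-numbered retinas correlated at 0.06, 0.07, -0.01 and -0.09 for the numbers 1, 4, 7 and 8. Only for number 4 was this the highest correlation of both retinas. Correlations of so few retinas cannot exclude a pairing. With the replicate block, 7 members were higher and 1 lower, beside 8.63% and 6.89% of all genes, and 2 partner genes were higher and 0 lower. In the same 8 retinas with no replicate block, 10 and 1 members were called, beside 10.6% and 8.78% of all genes. Psma6, Psmd2, Psmd3, Psmd14, Psme1, Psme2 and Psme2b were higher under all 22 alternatives, 7 of the 15 called. Signs turned in 11 of 770 single-gene values (35 genes), while 68 lost and 21 gained a call. Psmb2 turned to 0.07 by TPM, 0.10 without the factor, 0.00 by quantile normalization and 0.10 by limma-voom. Psmd1 turned to 0.07, 0.10 and 0.10 by TPM, without the factor and by limma-voom. Psmd8 turned to 0.01 without the factor and 0.01 by limma-voom. Psmf1 turned to -0.00 by quantile normalization and -0.02 without the LD retina 7 (-0.02 to 0.05 over single retinas left out). The causes were not tested. Depth limits Psma8 and Psmb11, which had at most 9 reads.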
